A study of Mus musculus with 81 samples.

Results

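DNA methylation was measured by MBD-seq in 7 libraries of P6 somatic cells from E18.5 fetal testes of F1 mice, 3 from the DMSO group and 4 from the TBT group, out of 81 samples in the series. Every 100 base window of the deposited F1 table was used, 154773 windows in all, each with its CpG number (the count of CG dinucleotides in the window). Pregnant F0 dams of the OG2 strain were given 50 nM tributyltin (TBT) or the vehicle DMSO, and their F1 fetuses were collected late in gestation, at E18.5. OG2 mice carry EGFP under the Pou5f1 (Oct4) promoter, which marks germ cells, and P6 is the sorted gate of EGFP-negative testicular cells, a mixture of Sertoli, Leydig and other somatic cells. Both groups carried the transgene. The study's methods describe the samples as generated independently and its text speaks of separate litters, but the labels do not tie libraries to litters, so p-values measure the spread between these libraries. A change in methylation within a cell type and a change in the mixture of cells cannot be told apart in such bulk samples.

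In mammals, methylation is placed on the cytosine of CpG dinucleotides. Most CpGs of somatic cells are methylated, except those in the CpG-dense promoters of active or poised genes, and methylation is part of what keeps germ cell genes and retroviral LTR elements silent in somatic cells. MBD-seq pulls down sonicated DNA with a protein domain that binds methylated CpGs, so the read count of a window rises both with methylation and with the number of CpGs on the fragments that reach it. TBT is an organotin that activates the nuclear receptors RXR and PPARγ.

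The listed windows cover 0.568% of the 27255223 windows of the genome, so the table totals are not the depth of the libraries, and how the windows were selected is not given in the sources used here. The totals were 701493 to 938756 counts in the DMSO libraries. In the TBT libraries they were 1500337, 1695521 and 1913353 in libraries 4, 5 and 7, and 887213 in library 6, which lies within the DMSO range. The median window held 3 to 9 counts in a library, and 5945 windows held no count in any. The precision per window was therefore low. Levels below are in CPM, the count per 1000000 counts of the library's table total after TMM scaling, given as mean ± SD. Between any 2 libraries the chi-square of the counts per degree of freedom was 0.997 to 1.06, within and between groups alike. The libraries thus differed by little more than counting error, with a common dispersion of 0.000763, and the counts cannot tell a repeat of 1 library from separate libraries. All 7 were counted as separate, as labelled.

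Of the 154773 windows, 34559 had enough counts to be tested with edgeR's quasi-likelihood test. Of these, 11 (0.0318%) passed a false discovery rate (FDR) of 0.05, with 2 higher (0.00579%) and 9 lower (0.026%) in the TBT group. The 2 higher windows were neighbours in Gm21978, an unprocessed pseudogene on chromosome 4. The lower windows included a pair in the Peak1 locus on chromosome 9 and a window in an intron of Gnb1l that holds the start of the 18S ribosomal RNA sequence. At an unadjusted p under 0.05, 911 windows were higher and 819 lower. Over all tested windows the median log2 fold change (TBT over DMSO) was 0.00 and the SD 0.30, with 17346 windows above 0 and 17213 below.

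The sequences of 7 of the 8 windows past FDR 0.05 whose groups did not overlap in CPM are given to show the CpGs that each holds, from 0 to 17. They are read from the GRCm38 (mm10) reference on the plus strand, 5′ to 3′, and capitals mark CpGs. The exception is the Gnb1l window, which has no CpG. There the capitals mark the 29 bases that it shares, on the opposite strand, with bases 1 to 29 of Rn18s-rs5, an annotated copy of the 18S ribosomal RNA at chr17:39846354-39848202. The windows lie at chr4:145560501-145560600 (Gm21978 window 1), chr4:145560601-145560700 (Gm21978 window 2), chr9:56223701-56223800 (Gm24270), chr9:56223401-56223500 (Peak1 intron), chr16:18533301-18533400 (Gnb1l intron), chr4:146740801-146740900 (Gm26573 intron) and chr4:64498101-64498200 (outside genes).
Gm21978 window 1: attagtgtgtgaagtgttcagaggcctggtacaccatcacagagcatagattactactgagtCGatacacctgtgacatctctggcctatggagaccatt
Gm21978 window 2: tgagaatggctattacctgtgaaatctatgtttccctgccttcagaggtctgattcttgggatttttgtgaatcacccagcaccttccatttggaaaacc
Gm24270: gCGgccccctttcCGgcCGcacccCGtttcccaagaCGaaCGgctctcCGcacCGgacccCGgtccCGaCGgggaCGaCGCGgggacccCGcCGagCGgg
Peak1 intron: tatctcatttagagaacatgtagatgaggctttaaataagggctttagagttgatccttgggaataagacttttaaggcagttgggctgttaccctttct
Gnb1l intron: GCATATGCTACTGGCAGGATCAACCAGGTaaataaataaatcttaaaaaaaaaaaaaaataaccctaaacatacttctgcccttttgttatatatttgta
Gm26573 intron: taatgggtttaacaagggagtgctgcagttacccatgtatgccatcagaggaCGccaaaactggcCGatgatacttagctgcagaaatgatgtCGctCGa
Outside genes: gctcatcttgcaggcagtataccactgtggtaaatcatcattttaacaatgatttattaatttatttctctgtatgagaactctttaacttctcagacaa

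The gain on chromosome 4 covered a neighbouring pair of windows in an exon of Gm21978, with no other listed window within 1000 bases. In window 1 the CPM were 10.6, 12.9 and 8.67 in the DMSO libraries and 22.6, 22.4, 23.8 and 27.7 in the TBT libraries. Its mean rose from 10.7 ± 2.1 (SD, n = 3) to 24.1 ± 2.47 (SD, n = 4), a log2 fold change of 1.20 ± 0.275 (SE) with an adjusted p of 0.0425. In window 2 the DMSO libraries held 17, 15.7 and 15.2 CPM and the TBT libraries 31.8, 32.4, 36.3 and 31.9. That is 16 ± 0.924 against 33.1 ± 2.15, a log2 fold change of 1.02 ± 0.234 with an adjusted p of 0.0425. In both windows every TBT library, library 6 included, lay above every DMSO library. The 2 windows hold 1 and 0 CpGs, and 1 and 3 CpGs lie within the 500 bases centred on each. Neighbouring windows share fragments of 100 to 200 bases and are not separate evidence. Their exact copies in the genome numbered 1 and 2, by the median of 3 words of 32 bases from each window, so reads from a related copy cannot be told apart in window 2. Neither window passed FDR 0.05 in any of the 7 fits that left out 1 library. Over all alternative settings the adjusted p ranged from 0.0203 to 1 in window 1 and from 0.0194 to 1 in window 2, while the log2 fold change stayed between 1.04 and 1.33 in window 1 and between 0.96 and 1.10 in window 2.

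The Peak1 locus held 2 of the lower windows, 300 bases apart, within an intron of Peak1, which encodes a pseudokinase of the cytoskeleton. The first overlaps the annotated miRNA gene Gm24270 and holds 17 CpGs, with 44 CpGs in the 500 bases around it and 3 copies in the genome. It held 72.8 times the median count of windows with the same CpG number, promoters included. With 12 or more CpGs, windows outside promoters averaged 6.95 to 7.87 CPM in the DMSO libraries. Those in promoters averaged only 1.56 to 1.70, so the ratio is smaller against windows outside promoters. Its CPM were 94.4, 98.6 and 97.5 in the DMSO group and 59, 57.1, 62.4 and 48.6 in the TBT group. The mean fell from 96.8 ± 2.16 to 56.8 ± 5.88, a log2 fold change of -0.80 ± 0.147 (SE) with an adjusted p of 0.00215, the lowest of all windows tested. The second window holds no CpG of its own, lies in an MLT-int LTR element, and has 16 CpGs in the 500 bases around it. It held 73.2, 75.7 and 74.8 CPM in the DMSO libraries and 52.4, 45.3, 39.7 and 39.7 in the TBT libraries, a log2 fold change of -0.75 ± 0.156 with an adjusted p of 0.01. The groups did not overlap in either window. One more listed window, 400 bases before the first, held 23.2 CPM on average in the DMSO group and 14.3 in the TBT group and was not called. The Gm24270 window kept its call in 5 of the 7 fits without 1 library, more than any other called window, and the Peak1 intron window in 3.

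The Gnb1l intron window held 67.9, 67.1 and 87.8 CPM in the DMSO libraries and 42.5, 53.5, 34 and 42.3 in the TBT libraries. Its mean was 74.3 ± 11.7 against 43.1 ± 8.01, a log2 fold change of -0.76 ± 0.156 with an adjusted p of 0.0095. Of the 154773 windows, 3 shared at least 20 bases with Rn18s-rs5, and the others, on chromosomes 1 and X, were too low to be tested. They averaged 7.06 and 6.79 CPM in the DMSO group and 7.77 and 9.97 in the TBT group. The match was looked for after the sequence had been seen. The Gnb1l window holds 65.4 counts on average, which is 14.8 times the median of windows with no CpG. A window on chromosome 18 with 9 CpGs and 12 copies in the genome averaged 72.7 ± 7.91 CPM in the DMSO group and 42.5 ± 15 in the TBT group (log2 fold change -0.69, adjusted p = 0.0358). It held 46.2 times the median count of windows with the same CpG number, promoters included. With 9 CpGs, windows averaged 11.6 to 13.5 CPM outside promoters and 1.49 to 1.76 in promoters in the DMSO libraries. The Gm24270 and chromosome 18 windows were not compared with the full 28S ribosomal RNA, so the source of their reads was not tested. The library 6 value of the chromosome 18 window, 20.4, was far below the other TBT values of 46.5 to 53.3.

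The Gm26573 intron window, in a long noncoding RNA gene, held 63.7, 77.1 and 63.9 CPM in the DMSO libraries and 37.2, 35.9, 47.6 and 43.9 in the TBT libraries. Its log2 fold change was -0.74 ± 0.16 with an adjusted p of 0.0174, and the groups did not overlap. The window outside genes on chromosome 4, 451 kb from the nearest start of a protein-coding gene, Tnc, held 129, 163 and 129 CPM in the DMSO group. In the TBT group it held 82.3, 80.6 and 78.9 in libraries 4, 5 and 7, and 121 in library 6, for a log2 fold change of -0.67 ± 0.141 and an adjusted p of 0.01. Library 6 was thus close to the DMSO range there. Of the 7 fits without 1 library, 3 called the Gnb1l window, 2 the Gm26573 window, 2 the chromosome 4 window outside genes and 1 the chromosome 18 window. DESeq2 gave adjusted p of 0.741 for the first 3 of these and 1 for the chromosome 18 window, and 0.113 for the Gm24270 window and 0.741 for the Peak1 intron window.

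**Figure D1:**
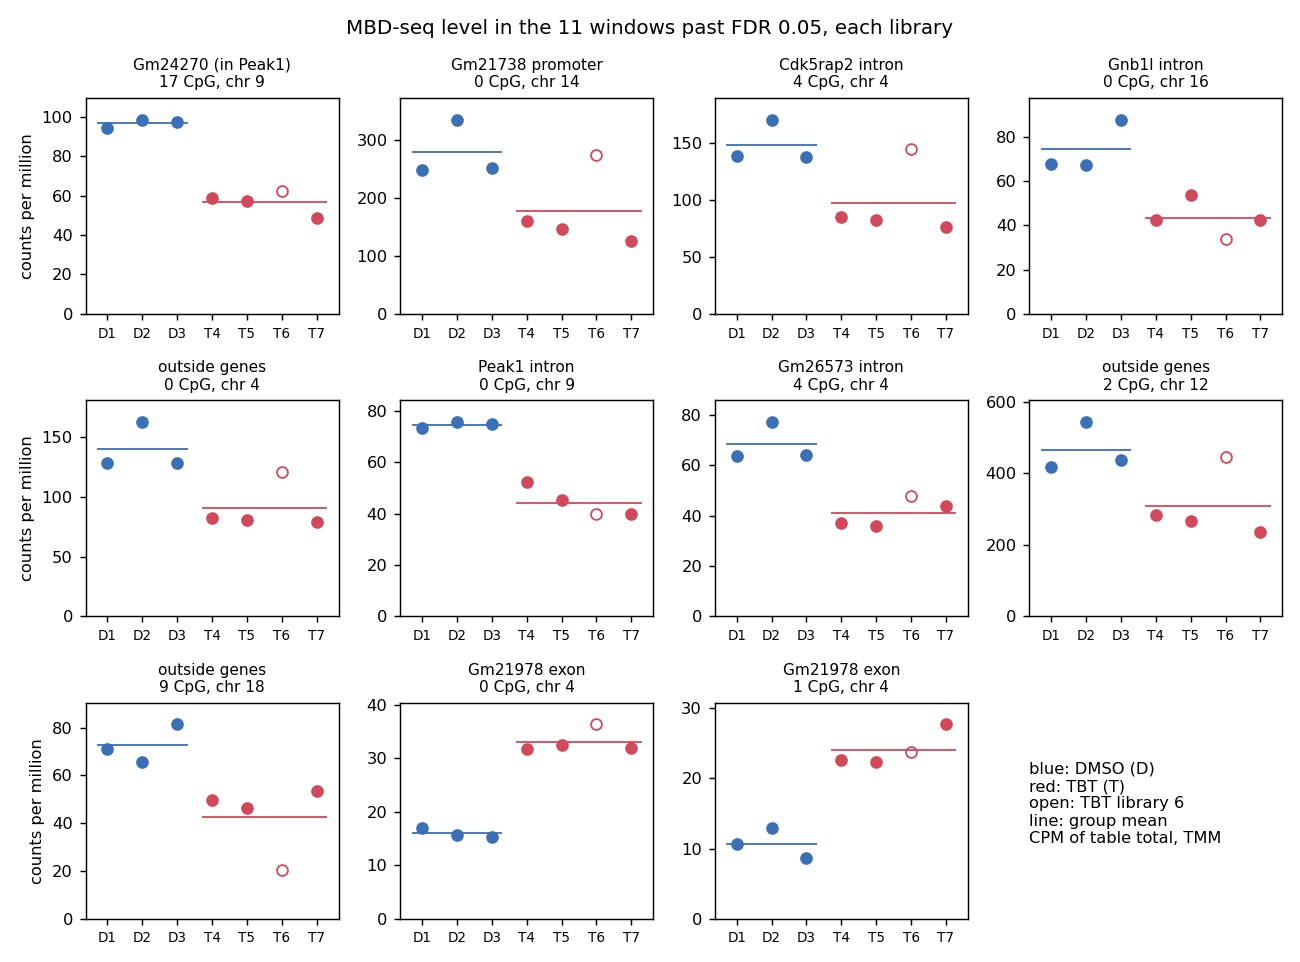
CPM (y axis, from 0) in each of the 7 libraries (x axis) for the 11 windows past FDR 0.05; blue points are DMSO, red points TBT, the open point TBT library 6 and lines the group means. Groups are apart in 8 windows, and in the Gm21738 promoter, Cdk5rap2 intron and chromosome 12 windows library 6 sits among the DMSO libraries.

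In the other 3 lower windows the groups overlapped, each time through library 6. They were a window with 96 undetermined bases in the promoter of Gm21738 (chr14:19419701-19419800), a window in an intron of Cdk5rap2, which encodes a centrosomal protein (chr4:70378001-70378100), and a window outside genes on chromosome 12 (chr12:74804301-74804400). Their log2 fold changes were -0.72, -0.68 and -0.64, with SE of 0.137, 0.14 and 0.14. The SD of their TBT libraries was 66.4, 32 and 94 CPM, and the SE rest in part on a spread pooled over windows. As deposited, however, the counts of these 3 windows differed little between libraries. The Gm21738 promoter window held 235, 235 and 233 counts in the DMSO libraries and 241, 250, 242 and 242 in the TBT libraries. The Cdk5rap2 window held 120 to 147 counts and the chromosome 12 window 380 to 453, the highest count of each library. The table total of library 7 was 2.16 times that of library 6, while the counts of these 3 windows in library 7 were 1, 1.15 and 1.15 times those in library 6. The window outside genes on chromosome 4 had a ratio of 1.41, and the Gm24270 window 1.69. The Gm21978 windows had ratios of 2.52 and 1.91.

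**Figure D2:**
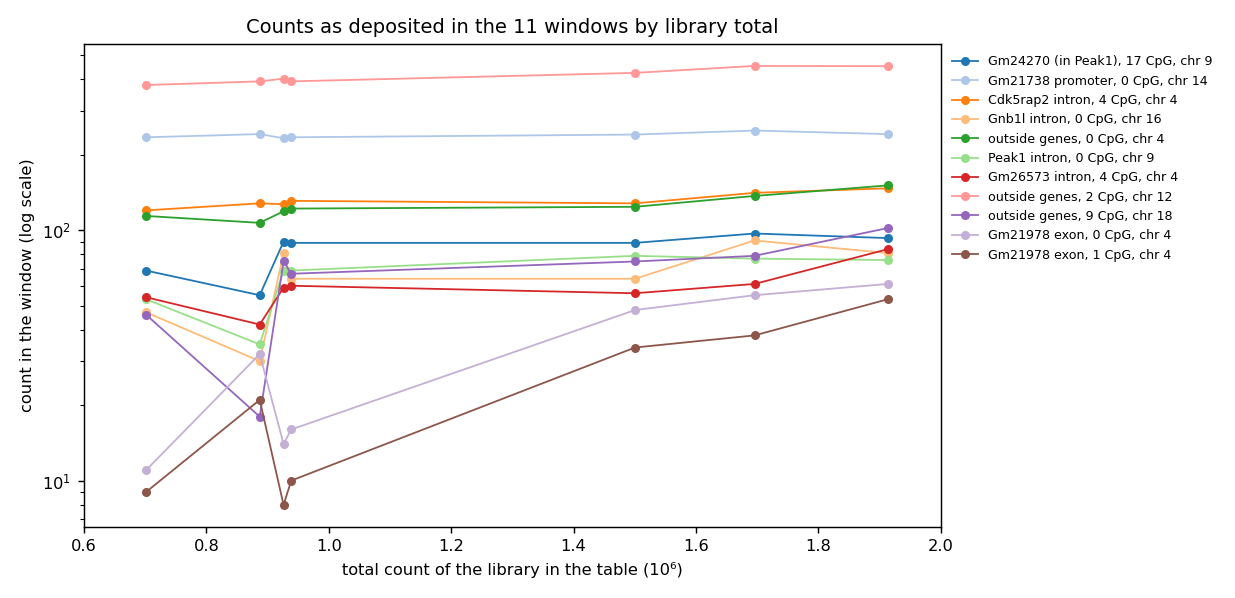
Count as deposited (y axis, log scale) in each of the 11 windows against the library's total count in the table (x axis), 1 line per window through the 7 libraries. The lines of the chromosome 12, Gm21738 promoter and Cdk5rap2 windows are nearly flat across the range of totals, and those of the Gm21978 windows rise with the total among the TBT libraries.

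The lower calls were all among windows of high count. Only 83 of the 34559 tested windows had a mean over 50 counts, and these held all 9 lower calls. The median log2 fold change was 0.00 in the 25039 windows with a mean of 10 to 20 counts and 0.02 in the 9324 with 20 to 50 counts. It was -0.11 in the 61 windows with at least 50 and under 100 counts and -0.32 in the 23 with at least 100 counts. In those 23 windows the median ratio of CPM to the DMSO mean was 0.774 for libraries 4, 5 and 7 together and 0.972 for library 6. The count of library 7 over that of library 6 had a median of 2.12 in the lowest of these classes and 1.66 in the highest. Tested windows averaging under 10 counts fell in none of these classes. The part of library totals in the lower calls was not tested. When windows averaging more than 100 counts were left out, the test called 6 windows, all lower.

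**Figure D3:**
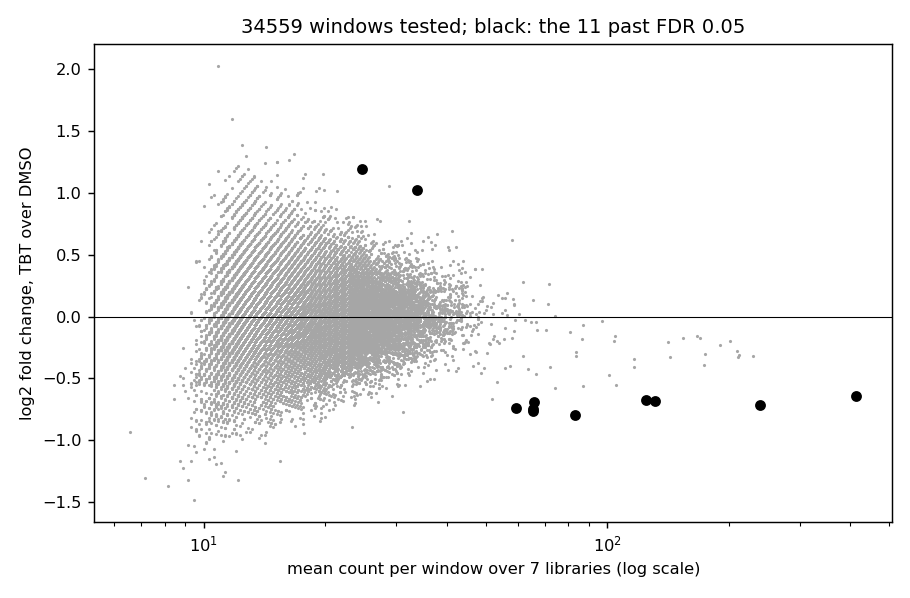
Log2 fold change, TBT over DMSO (y axis), against the mean count per window over the 7 libraries (x axis, log scale) for the 34559 windows tested; black points are the 11 past FDR 0.05. The 2 higher calls have means of 24.7 and 33.9 counts, and the 9 lower calls have means of 59.4 to 414 counts.

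The number of calls depended on single libraries. Without TBT library 6 the test called 12 windows, all lower. Without DMSO library 1 or 2 it called 1 and 0 windows, without DMSO library 3 it called 6, without TBT libraries 4 or 5 it called 2 and 3, and without TBT library 7 it called 6. The number of windows tested changed with the library left out, from 30597 to 58630. DESeq2 called no window, with 568 at an unadjusted p under 0.05. Across all tested windows, 6.63% had groups that did not overlap, and 8 of the 11 calls were among them.

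The 2 windows nearest to the threshold from outside were a window in an exon of Ebf2, a transcription factor of neurons and brown fat, and a window in the pseudogene Rps25-ps1. The Ebf2 window held 10.6, 2.86 and 23.8 CPM in the DMSO libraries and 23.9 to 32.9 in the TBT libraries, with a log2 fold change of 1.06 and an adjusted p of 0.0788. The Rps25-ps1 window averaged 20.5 ± 2.53 in the DMSO group and 8.89 ± 3.23 in the TBT group, with a log2 fold change of -1.17 and an adjusted p of 0.0797. The F3 table held 12 libraries of P6 cells at E18.5, numbered 1 to 5 in the DMSO and 6 to 12 in the TBT lineage. F3 fetuses descend from the F0 dams and were not themselves exposed. Of the 154773 F1 windows only 943 were listed in the F3 table, and 173 were tested in both. The F3 table listed 0 of the 11 called windows, so it cannot show whether they changed in F3. There edgeR's quasi-likelihood test called 0 of 47563 F3 windows (2469 at an unadjusted p under 0.05), with 0 calls by the likelihood ratio test. An F3 window 1400 bases from the Gm21738 promoter window held 623 to 659 counts in all 12 F3 libraries. The other F3 windows within 2000 bases of a called window were 2 near the Peak1 locus calls, with 0 to 1 and 0 to 5 counts.

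To ask whether promoters changed, counts were summed over the listed windows from 1000 bases before to 500 bases after the start of each protein-coding gene. Of 21951 promoters, 1557 had a listed window and 338 had enough counts to be tested, so most promoters were not assessed. None passed FDR 0.05 in edgeR's quasi-likelihood test (0 of 338, 0%), with 7 higher and 10 lower at an unadjusted p under 0.05, and DESeq2 also called 0 (8 at an unadjusted p under 0.05). The median log2 fold change was 0.01, with 171 promoters above 0 and 167 below. Taken singly, 306 promoter windows were tested, and only 23 of these held 5 or more CpGs. CpG-dense promoters were thus hardly assessed, and the lack of calls says little about them. The study reported gained methylation at CpG islands of promoters in these cells after TBT. Whether such islands changed was not tested here.

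The 5 promoters of smallest p in each direction did not pass and are given as values. On the higher side, Tex13b, an X-linked gene expressed in testis, held 18.4 ± 1.28 CPM in the DMSO group and 28.1 ± 4.04 in the TBT group (log2 fold change 0.59, adjusted p = 0.834). Esd, which encodes esterase D, held 11.9 ± 2.06 and 18.9 ± 1.95 (0.63, adjusted p = 0.873). These were the only 2 of the 5 whose groups did not overlap. The 5 were picked for a small p, and the share over all promoters tested was not examined, so nothing is read from this. The folate transporter gene Slc46a1, the GTPase gene Rac2 and Gm10118 had log2 fold changes of 1.10, 0.75 and 0.94 and adjusted p of 0.818, 0.834 and 0.834. On the lower side, the Gm21738 promoter was the single window described above (adjusted p = 0.317), and it passed when library 6 was left out (log2 fold change -0.95, adjusted p = 1.30e-05). The vomeronasal receptor gene Vmn1r95 held 36.2 ± 6 and 21.1 ± 3.18 CPM (-0.77, adjusted p = 0.752). Cuedc2 held 16.2 ± 2.39 and 8.52 ± 1.78 (-0.86, adjusted p = 0.782), and the sulfotransferase gene Sult2a1 held 14 ± 2.01 and 6.95 ± 2.19 (-0.96, adjusted p = 0.782), without overlap in these 3 genes. As on the higher side, nothing is read from the lack of overlap. The chemokine gene Ccl8 held 27.4 ± 8.12 and 16.2 ± 4.66 (-0.76, adjusted p = 0.782), with overlapping groups.

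In bins of 500 bases, 0 of 35838 (0%) passed FDR 0.05 in edgeR's quasi-likelihood test, with 1827 at an unadjusted p under 0.05 and a lowest adjusted p of 0.332, and 65.1% of the bins tested held only 1 listed window. The 5 bins of largest change in each direction had log2 fold changes of 1.72 to 2.04 and -1.53 to -1.40. Under the likelihood ratio test 6 bins passed, 5 of them higher, and they are named here because they passed in that test. A bin in an intron of the elongation factor gene Eefsec (chr6:88314001-88314500) held 4, 1 and 7 counts in the DMSO libraries and 26, 35, 11 and 33 in the TBT libraries. A bin in an intron of Gm32531, near Cdh11 (chr8:103327501-103328000), held 17.4 ± 6.38 CPM in the DMSO group and 41.4 ± 9.25 in the TBT group. The Gm21978 bin (chr4:145560501-145561000) held 26.7 ± 2.49 and 57.2 ± 3.06. The other 3 lay outside genes, at chr6:95782001-95782500 (log2 fold change 1.72), chr10:21588501-21589000 (1.93) and chr2:108784001-108784500 (-1.33). In all 6 bins the groups did not overlap. The bins were picked by a test of the same values, and the share over all bins was not examined, so nothing is read from this.

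The level of the windows varied with their CpG number and their place in the genome. Outside promoters the mean level in the DMSO group was 4.6 ± 0.153 CPM per window with no CpG, 7.08 ± 0.0626 with 1 CpG, 10.3 ± 0.343 with 2 and 15.7 ± 1.59 with 5 to 7, and it was lower again, 10.9 ± 1.15, with 8 or more. In the TBT group these levels were 4.57 ± 0.0532, 7.03 ± 0.0128, 10.4 ± 0.152, 16.1 ± 0.736 and 11.2 ± 0.586. In promoters the level in the DMSO group was 4.38 to 6.47 with up to 4 CpGs. It was 2.91 ± 0.142 in the DMSO and 2.88 ± 0.103 in the TBT group with 5 to 7 CpGs, and 1.46 ± 0.0515 and 1.49 ± 0.0935 with 8 or more. Windows with 8 or more CpGs outside promoters thus held 7.47 times the level of those in promoters in the DMSO group. The X chromosome held 0.414 of the autosomal level in windows with no CpG, 0.457 with 3 to 4 CpGs and 0.579 with 5 to 7. The fetuses were male, with a single X chromosome, and levels were not corrected for copy number. In the 23 X windows with 8 or more CpGs the X level was 1.29 times the autosomal level. LTR elements of the IAP family, retroviral elements that are heavily methylated in somatic cells, held 15.8 ± 1.46 in the DMSO and 16.3 ± 1.35 in the TBT group in the 39 windows with 8 or more CpGs, where windows outside LTR loci and promoters held 9.73 ± 1.02 and 9.88 ± 0.452. With fewer CpGs the IAP level in the DMSO group was below that of windows outside LTR loci and promoters, 4.58 against 4.65 with no CpG, 6.14 against 7.14 with 1, 8.3 against 10.4 with 2, 10.3 against 13.7 with 3 to 4 and 14.9 against 15.8 with 5 to 7.

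**Figure D4:**
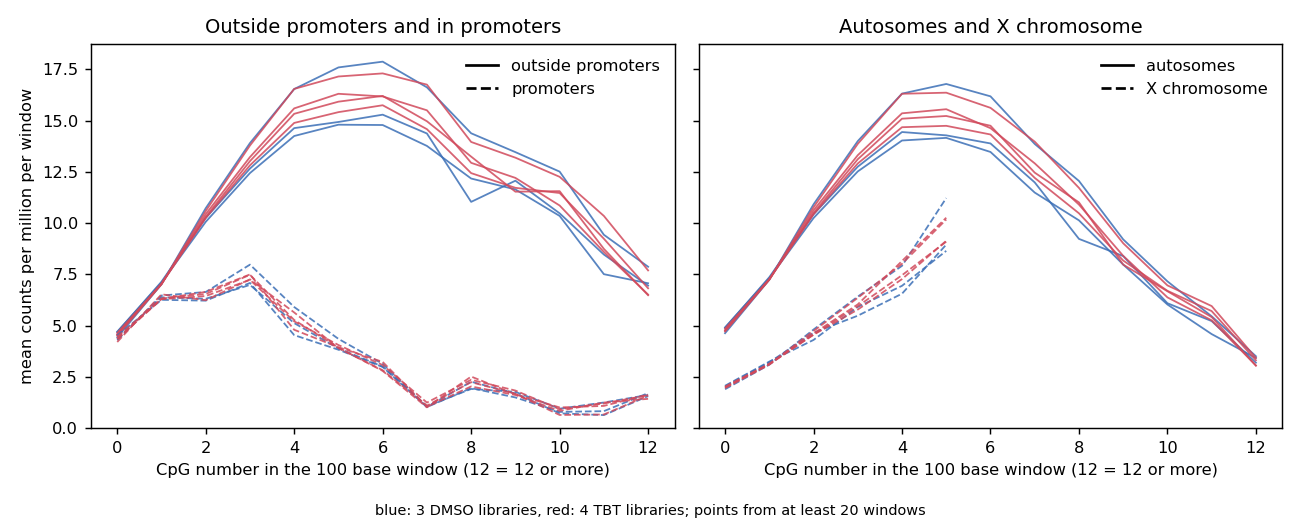
Mean CPM per window (y axis) against the CpG number of the 100 base window (x axis), 1 line per library, for windows outside promoters and in promoters (left) and on autosomes and the X chromosome (right); points rest on at least 20 windows. The blue DMSO and red TBT lines interleave, with DMSO library 3 and TBT library 6 highest at 4 to 6 CpGs outside promoters.

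The difference in the share of counts at each CpG number was smaller than the spread of the libraries, but it rested on single libraries. The exact two-sided permutation test over 7 libraries has 35 splits and cannot give a p below 0.0571. Windows with no CpG held 35.8 ± 1.3% of counts in the DMSO group (SD, n = 3) and 35.6 ± 0.537% in the TBT group (SD, n = 4; exact permutation p = 0.686). Windows with 8 or more CpGs held 0.482 ± 0.0439% and 0.493 ± 0.0197% (exact permutation p = 0.629). DMSO library 3 and TBT library 6 had the largest shares of windows with 3 or more CpGs, for example 3.2% and 3.11% at 5 to 7 CpGs, against 2.7% to 2.96% in the other 5 libraries. At no CpG the difference (TBT minus DMSO) was -0.256 percentage points, -0.996 without DMSO library 3 and 0.218 without DMSO library 1. At 3 to 4 CpGs it was 0.256, 0.700 without DMSO library 3 and -0.00743 without DMSO library 1. Promoters held 1.01 ± 0.0179% and 0.998 ± 0.00576% of counts, exons outside promoters 9.34 ± 0.366% and 9.47 ± 0.191%, and introns 44.3 ± 0.0739% and 44.4 ± 0.046%. LTR loci held 11.2 ± 0.109% and 11.2 ± 0.082%, and the ERVK class, to which IAP elements belong, 5.19 ± 0.162% and 5.22 ± 0.0917%. Of 38 shares compared, 3 had groups that did not overlap, those of chromosomes 2, 15 and 19, each higher in the TBT group by 0.0329, 0.0561 and 0.0318 percentage points. Their exact permutation p was 0.0571, the smallest possible, and 0.723 after adjustment over the 38 shares.

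**Figure D5:**
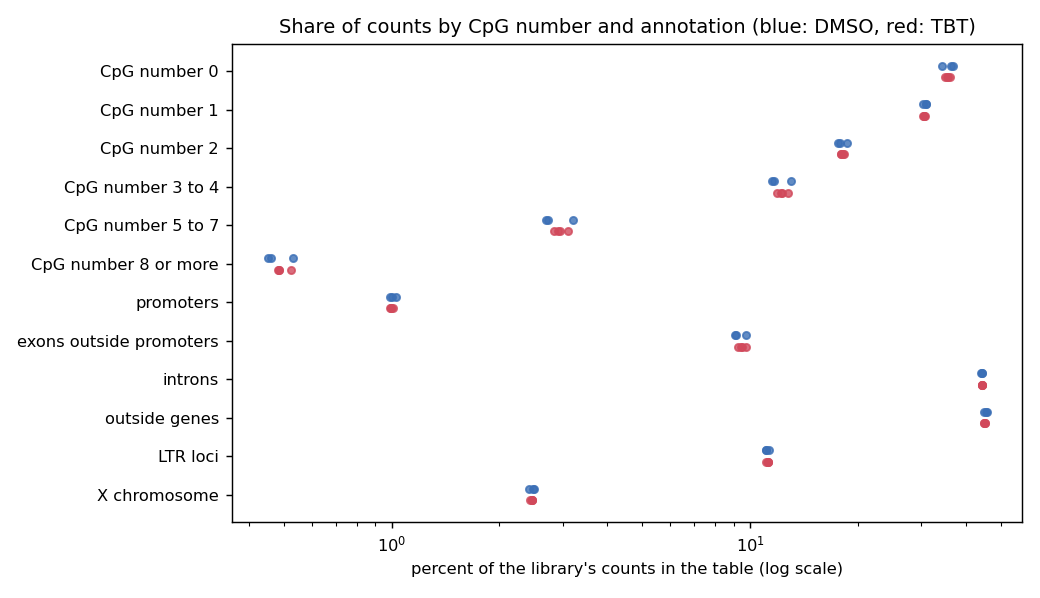
Percent of a library's counts in the table (x axis, log scale) for windows grouped by CpG number and by annotation (y axis); each point is 1 library, blue for DMSO and red for TBT. In each of the 12 rows shown the 2 groups overlap.

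The gene lists were followed through the windows in their gene bodies and promoters, and none of the 10 held a called window. At 0.0318% called over all windows tested, nothing is read from this count in lists of 3 to 53 tested windows. Over all windows tested, 50.2% had a log2 fold change above 0 and the median was 0.00. Germ cell genes that are methylated in somatic cells had 23 tested windows in 14 of 34 genes, 5 of them above 0, with a median of -0.15. A window in an intron of the testis gene Stk31 had the lowest p, with 16.1 ± 4.65 CPM in the DMSO and 9.1 ± 3.83 in the TBT group (log2 fold change -0.90, adjusted p = 0.937), and Rnf17 was next on the lower side (-0.50, adjusted p = 0.997). On the higher side were Sycp1, of the synaptonemal complex (0.35), and Tdrd9, of the piRNA pathway (0.29), both with an adjusted p of 0.997. Among the promoters, Mov10l1, an RNA helicase of the piRNA pathway, held 35.5 ± 5.06 and 35.6 ± 2.37 CPM in a window with 6 CpGs, where promoter windows with 5 to 7 CpGs averaged 2.91 in the DMSO group. The only other gene of the list with listed promoter windows was Mael, whose 2 windows with no CpG were too low to be tested (1.06 ± 1.84 and 2.72 ± 2.65 CPM in the DMSO group, 4.12 ± 1.02 and 3.4 ± 2.02 in the TBT group). Dazl, an RNA-binding protein of germ cells, had 3 intronic windows with no CpG, none of them tested, with means of 2.01 to 2.61 in the DMSO and 2.46 to 4.49 in the TBT group, and Thap1 had 0 listed windows.

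Imprinted genes had 31 tested windows in 12 of 28 genes, 13 of them above 0, with a median of -0.05. The lowest p on each side were in introns of Grb10 (-0.72, adjusted p = 0.974) and Rasgrf1 (-0.48, adjusted p = 0.974), and of Usp29 (0.76, adjusted p = 0.974) and Grb10 (0.45, adjusted p = 0.982), so Grb10 had windows on both sides. Pluripotency genes had 21 tested windows, 14 above 0, with a median of 0.10. A neighbouring pair of windows in an exon of Nanog held 9.67 ± 2.95 and 10.8 ± 0.982 CPM in the DMSO group and 15.3 ± 2.4 and 15.6 ± 3.6 in the TBT group (adjusted p = 0.974 and 0.997). Kit, the stem cell factor receptor, and Dppa2 had the lowest p on the lower side (-0.42 and -0.21). The receptors of TBT and fat cell genes had 25 tested windows in 9 of 24 genes, 17 above 0, with a median of 0.10. Zfp423, a factor of fat cell precursors, held 6.09 ± 2.29 and 11.7 ± 1.3 CPM in an intronic window (0.91, adjusted p = 0.974), and Ebf1 had windows on both sides (0.63 and -0.30). The coactivator gene Ppargc1a was lower in value (-0.55, adjusted p = 0.997). In the DNA methylation and retrovirus silencing list, with 18 tested windows in 6 of 25 genes and a median of -0.04, intronic windows of the methyltransferase gene Dnmt1 (0.28 and 0.17) and of Morc1 (-0.49 and -0.41) had the lowest p, all with an adjusted p of at least 0.995.

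The remaining lists were thinly covered. Sertoli cell genes had 5 tested windows (median 0.04, Dmrt1 0.23 and -0.02, Clu 0.13), Leydig cell genes 3 (median -0.26, Hsd17b3 -0.31, Cyp11a1 -0.26) and Hox genes 3 (median -0.02, Hoxb3 0.32 and -0.31, Hoxa3 -0.02). No promoter window of a Sertoli or Leydig cell gene was listed, and the identity of the cells rests on the labels. Immediate early and stress genes had 4 tested windows (median 0.12), with the nuclear receptor genes Nr4a1 at 0.53 and Nr4a3 at -0.65 and Atf3 at 0.23. The genes whose promoters the study listed were chosen on these samples, so their windows are not independent evidence. They had 53 tested windows in 17 of 60 genes, 30 above 0, with a median of 0.06. A pair of windows in an exon of Pias4, a SUMO ligase, with 11 and 6 CpGs, held 21.7 ± 1.96 and 26.7 ± 6.04 CPM in the DMSO group and 36 ± 5.55 and 39 ± 9.03 in the TBT group, with log2 fold changes of 0.67 and 0.45 (adjusted p = 0.933 and 0.974). A window in an intron of Tyw1, a gene of tRNA modification, held 23.3 ± 7.51 and 13.2 ± 2.16 (-0.84, adjusted p = 0.69), and another intron window of Pias4 had a log2 fold change of -0.40. Only 6 of the 60 genes had a listed promoter window, and only that of Prr23a2 was tested, with 25.9 ± 5.75 and 30.9 ± 9.35 CPM (0.16, adjusted p = 0.997). Of those too low to be tested outside chromosome 18, Gmpr held 9.43 ± 2.82 and 5.5 ± 1.63 CPM, Nt5dc2 1.55 ± 0.564 and 0.596 ± 0.465, Tlx3 1.55 ± 0.564 and 2 ± 1.76, and Syf2 1.31 ± 1.44 and 1.7 ± 1.19.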

How the data were processed

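MBD-seq libraries were made with the MethylMiner kit from DNA sonicated to 100 to 200 bases in 3 DMSO and 4 TBT samples. The authors deposited a table of read counts per 100 base window with the CpG number of each. Per the labels, reads were trimmed with Trim Galore and aligned with STAR to mm10. The study's text names these tools under its RNA-seq methods only and gives no aligner for MBD-seq. Duplicate handling was not given in the sources used here. The counts were taken as deposited. The CpG number equalled that of GRCm38, counting a CG across the right edge, in 100% of windows. Genes are from GENCODE vM21 and LTR loci (at least 50 bases of overlap) from the coordinates of the retroviral table of the series, which holds other values not used here. F3 windows were used only beside the F1 calls.

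Windows kept by filterByExpr (minimum count 10) were fitted in edgeR 4.0.16 (R 4.3.3) with TMM factors and the quasi-likelihood test, with Benjamini-Hochberg FDR over all windows tested. The common dispersion was 0.000763. Promoters and 500 base bins were sums of listed windows. DESeq2 1.42.0 and other settings were alternatives. On simulated data of 200 changed windows, 0% were called at 1.5-fold, 30% at 2-fold and 65% at 3-fold. Windows named are those past FDR 0.05 and, chosen after their values were seen, the 2 nearest to it. For promoters the 5 of smallest p in each direction are named, for bins the 5 of largest change are given as a range and those past the likelihood ratio test, also chosen after their values were seen, are named, and for lists the 2 windows of smallest p in each direction. Dazl and Thap1, which the study shows, are named by rule, and promoter windows of list genes were chosen after their values were seen. The study used QSEA with an input library, which was not used here. The lists and comparisons were chosen with earlier results of these data known. The exclusion of windows averaging over 100 counts, that of windows with more than 1 copy in the genome and the 18S comparison were added after seeing the data.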

Additional observations from a re-analysis of the deposited data

Results flagged for a closer look

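TBT library 6 lay apart from the other 3 TBT libraries in 5 of the 52 groups of 4 TBT values that were examined. Chance gives about 1 in 20 for any library in independent groups, but these groups overlap and hold windows picked for a small p, so the count cannot be read against that share. It held 145 CPM in the Cdk5rap2 intron window, 121 CPM in the window outside genes on chromosome 4 and 36.3 CPM in the second Gm21978 window, each above the others. It held 0.523% of its counts in windows with 8 or more CpGs, above the others, and 4.21% on chromosome 15, below them. Its table total was 887213 counts, against 1500337 to 1913353 in the other TBT libraries. The groups of 3 DMSO values were not examined in this way.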

How the results depend on the processing

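The 11 calls (2 gained, 9 lost) were again 11 with the likelihood ratio test, with an offset that follows CpG number, and with library totals or median ratios in place of TMM, and 11 (3 gained, 8 lost) of 9408 windows with a mean of at least 20 counts. They fell to 0 without a filter, where 148828 windows were tested (6770 at an unadjusted p under 0.05), and to 0 in DESeq2 (568). Leaving out 1 library gave 0 to 12 calls, 0 to 1 gained and 0 to 12 lost. Of the settings added after seeing the data, leaving out windows averaging over 100 counts left 6 calls (0 gained) and windows with 1 copy in the genome left 5 (0 gained, 5 lost). Promoters gave 0 to 1 calls when 1 library was left out, the 1 being Gm21738 without TBT library 6, and 1 without a filter (Ccdc6), and 0 otherwise. Bins gave 6 calls with the likelihood ratio test and 0 to 3 when 1 library was left out, 3 without TBT library 6. F3 windows gave 0 calls in every setting. Only in windows kept by the filter, the difference in share (TBT minus DMSO, in percentage points) moved by more than 1 SD for promoters, to -0.028, and for chromosomes 2, 11, 12, 13, 15 and 19, to 0.0239, -0.0701, -0.0488, 0.045, 0.0733 and 0.0614. Leaving out 1 library moved the difference with no CpG between -0.996 and 0.218, and that with 3 to 4 CpGs between -0.00743 and 0.700. The cause of these moves was not tested.

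No paired analysis was possible because the library numbers are not shared between the groups (1 to 3 in DMSO, 4 to 7 in TBT). The table holds 0.568% of genome windows at a median of 3 to 9 counts, and in simulations no 1.5-fold change was called, so a change of that size was not detectable in windows of typical count. The calls nearest to that size were in windows of high count.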
